A study of Danio rerio with 16 samples.

Results

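Chaperones are proteins that help others to fold, to assemble into complexes or to cross membranes. HSP70 proteins bind exposed stretches of unfolded chains, J-domain proteins bring them their clients and start their ATP cycle, HSP90 finishes the folding of many signalling proteins, and the HSP60 and CCT rings enclose a chain while it folds. Small heat shock proteins hold unfolded chains without ATP. A zebrafish egg carries a large store of maternal transcripts, and the embryo's own genes are switched on at the blastula stage, so a chaperone transcript in an early embryo can come from either source.

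The genes described here are the 61 chaperone genes, of 9238 named genes on the array, whose symbol begins with hsp, with dnaj or with cct and a digit. The brightest probe stood for each gene. They comprised 4 small heat shock proteins, 8 members of the HSP70 family, 4 of the HSP90 family and the HSP60 and HSP10 pair. The rest were 34 J-domain co-chaperones, 7 subunits of the CCT ring and 2 others matched by name (hspbp1, an exchange factor of HSP70, and hspbap1). Of these genes, hspb1 is known as an early zygotic gene. Which of the other transcripts were maternal was not measured here.

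The study asked which genes Pou5f1 and Sox2, transcription factors of the early embryo, affect when new proteins cannot be made. Whole embryos, 60 to 100 pooled per sample, were kept from 1.5 hours post fertilization in 15 µg/ml cycloheximide, an inhibitor of translation, and frozen at 4.7 hours. All 16 samples shared this treatment, so none shows the untreated level. MZ embryos are maternal and zygotic mutants of spg, the zebrafish Pou5f1 gene, with the allele m793. The group MZ_Pou5f1 (3 samples) had received 100 pg of Pou5f1 mRNA in the MZ background, MZ_Sox2 (4 samples) 50 pg of Sox2 mRNA in the same background, and MZ (3 samples) no mRNA. WT_Sox2 (3 samples) had received 50 pg of Sox2 mRNA in wild type, and WT (3 samples) no mRNA.

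Each sample was 1 dye channel of a 2-colour array. Levels below are log2 of the deposited intensity, except in MZ_Pou5f1 replicate 2 and MZ_Sox2 replicate 4. The values of these 2 samples were first mapped by rank onto the distribution that the other samples share. Differences are log2 differences between groups as fitted by limma with a term for dye, so they can depart from those of the plain means. They come with their standard error (SE) and a p adjusted by Benjamini-Hochberg over 21495 probes. Arrays have no read depth, and precision here is set by how many there are. A probe's brightness also depends on its sequence, so the levels of different genes are not compared as amounts. In bulk samples, fewer cells of a type and less RNA per cell cannot be told apart.

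The samples followed their labels only in part. Over 10747 probes above the median intensity, 6 of the 16 samples correlated best with a sample of their own group. MZ_Pou5f1 replicate 3 was closest to WT replicate 1 (Spearman 0.993) and MZ_Sox2 replicate 3 to MZ replicate 3 (0.987). MZ_Sox2 replicate 1 was closest to WT replicate 2 (0.958). WT replicates 1 and 2 correlated at 0.997, and WT replicate 3 with its group at a mean of 0.840. The sample closest to WT replicate 3 was MZ replicate 2 (0.943), the other dye channel of the same array. The dark corner feature, a spot without probe, read 2.78 to 3.65 in 14 samples but 7.05 in MZ replicate 1 and 5.72 in WT replicate 3. For pou5f3, the zebrafish Pou5f1 gene, the levels were 13.79 to 14.93 in MZ_Pou5f1, 14.65 to 15.90 in MZ_Sox2, 14.68 to 15.92 in MZ, 13.92 to 15.22 in WT_Sox2 and 14.17 to 15.01 in WT. The sox2 probe read 5.37 to 7.46 in MZ_Sox2 against 7.39 to 9.01 in MZ, and 4.23 to 5.24 in WT_Sox2 against 6.75 to 8.30 in WT, so the injected samples were not higher. The sources used here do not say where these probes lie relative to the m793 change or the injected mRNA, and they do not check the labels.

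The chaperone genes were mostly bright. Of the 61, 54 lay above the median of all probes, 33 above its 75th percentile and 22 above its 90th. The 7 under the median were hspb7, hspb8, hspb9l, hspa8b, dnajb4, dnajb13 and dnajc30a. Levels under the dark corner feature occurred in at least 1 sample for 15 genes, and for hspb9l and dnajb13 in 10 and 11 of the 16 samples. Such levels were most frequent in MZ replicate 1 (13 genes) and WT replicate 3 (12 genes), and there were 4 or fewer in each other sample. Each level was set against the dark corner of its own sample. That cut-off was highest in MZ replicate 1 (7.05) and WT replicate 3 (5.72), so these counts do not show lower levels there.

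The gene that varied most was hspb1, which encodes a small heat shock protein. Its level was 9.34, 7.32 and 9.48 in MZ_Pou5f1 replicates 1 to 3. It was 9.97, 13.51, 11.83 and 13.16 in MZ_Sox2 replicates 1 to 4, and 12.89, 13.18 and 13.79 in MZ. WT_Sox2 samples read 11.29, 12.42 and 8.50, and WT samples 9.41, 9.19 and 11.66. The 3 MZ samples lay above all WT and all MZ_Pou5f1 samples, whereas the samples of MZ_Sox2 and of WT_Sox2 were spread over several log2 units and overlapped with their uninjected controls. Over the 16 samples hspb1 had an SD of 2.03 and a range of 6.47, both the largest of the 61 genes. The median SD of the 54 bright chaperone genes was 0.55, and that of all probes above the median intensity was 0.59. After hspb1, the highest SD among the 54 was 1.39, for dnajc19, and the lowest 0.26, for cct6a.

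**Figure D1:**
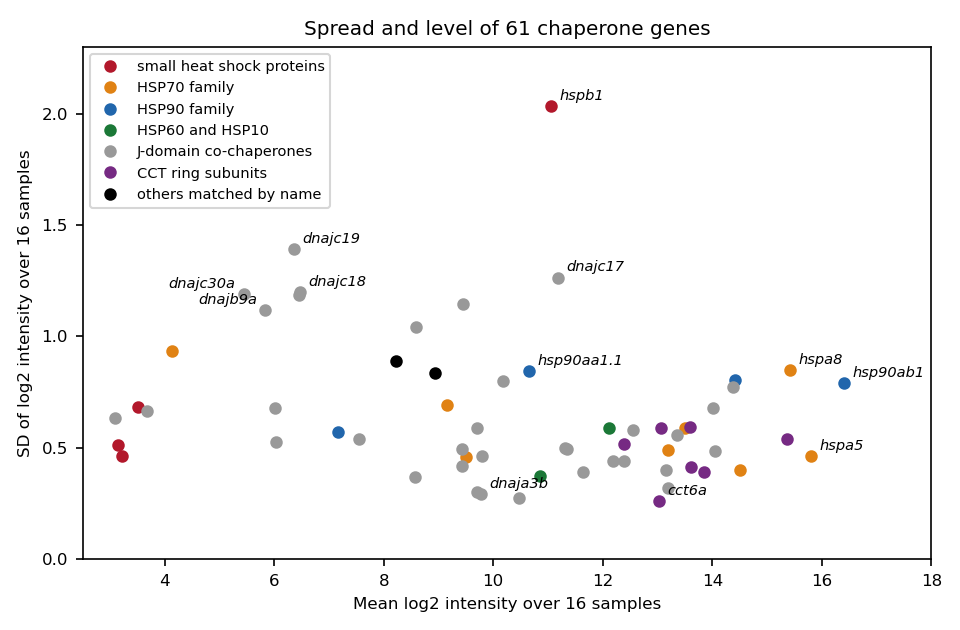
Each point is 1 of the 61 chaperone genes, with its mean log2 intensity over the 16 samples on the horizontal axis and the SD of its log2 intensity over the same samples on the vertical axis, coloured by role. The point for hspb1 lies at an SD of 2.03, above dnajc19 at 1.39 and above the bright genes hsp90ab1, hspa5 and hspa8.

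The group means of hspb1 ran, from low to high, 8.71 ± 1.21 in MZ_Pou5f1 (mean ± SD, n = 3 unless given), 10.09 ± 1.37 in WT, 10.74 ± 2.02 in WT_Sox2, 12.12 ± 1.60 in MZ_Sox2 (n = 4) and 13.29 ± 0.46 in MZ. Neighbours in this order overlapped in every case. The moderated F test of limma over the 5 groups gave an adjusted p of 0.374 for hspb1. A second hspb1 probe read nearly the same, with a gap between the probes of 0.15 in the median sample and at most 0.75.

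For hspb1 the fitted difference of MZ minus WT was 3.61 (SE 1.0, 95% interval 1.44 to 5.78, limma adjusted p = 0.31). That of MZ_Pou5f1 minus MZ was -4.58 (SE 1.0, interval -6.74 to -2.41, limma adjusted p = 0.409), 23.9-fold lower by the means. In both comparisons the groups did not overlap. The exact two-sided permutation test, on plain means that differed by 3.20 and -4.58, gave p = 0.1, the smallest that 3 against 3 samples allow. It treated the samples as independent, although each MZ sample shared an array with a WT sample. With each of the 6 samples left out in turn, the hspb1 difference of MZ minus WT lay between 2.97 and 4.18. It passed limma's threshold in 2 of these 6 fits, without WT replicate 2 (2.97, adjusted p = 0.0319) and without MZ replicate 1 (3.18, adjusted p = 0.0317). The adjusted p was 0.741 without WT replicate 1 and 0.937 without MZ replicate 2. For MZ_Pou5f1 minus MZ, 1 of 6 fits passed, that without MZ replicate 3 (-4.75, adjusted p = 0.0472), and the adjusted p reached 0.936 without MZ replicate 1. This difference rested in part on MZ_Pou5f1 replicate 2, without which it was -3.21 (limma adjusted p = 0.617). Within a slide, the hspb1 difference of MZ minus WT was 2.61 on slide 1 (2 samples per group) and 4.38 on slide 2 (1 per group). That of MZ_Pou5f1 minus MZ was -5.08 on slide 2 (3 against 1). These and the within-slide values below are differences of plain means without a dye term. On slide 1 the MZ samples were Cy5 and the WT samples Cy3, and on slide 2 the reverse. Genotype and dye therefore cannot be told apart within either slide.

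With Sox2 mRNA the hspb1 differences had intervals that included 0. They were -1.67 for MZ_Sox2 minus MZ (SE 0.97, interval -3.78 to 0.44, limma adjusted p = 0.77) and 0.65 for WT_Sox2 minus WT (SE 1.0, interval -1.51 to 2.81, limma adjusted p = 0.799). Exact permutation tests, on plain means that differed by -1.17 and 0.65, gave p = 0.286 and 0.8. Without MZ_Sox2 replicate 1 the first fitted difference was -0.96, and without WT replicate 2 the second was -0.06. The Sox2 effect in MZ minus that in WT was -2.32 (SE 1.38, interval -5.31 to 0.66, limma adjusted p = 0.634), and -3.71 with slide as a fixed block. The latter rests on MZ_Sox2 replicate 1, the only MZ_Sox2 sample on a slide with WT_Sox2 and the lowest of its group for hspb1. These intervals reach from several log2 units on 1 side to the other side of 0, so they do not show that hspb1 was alike. Neither Sox2 comparison has a slide with both groups, so slide and group cannot be told apart there, for hspb1 or for any gene below.

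**Figure D2:**
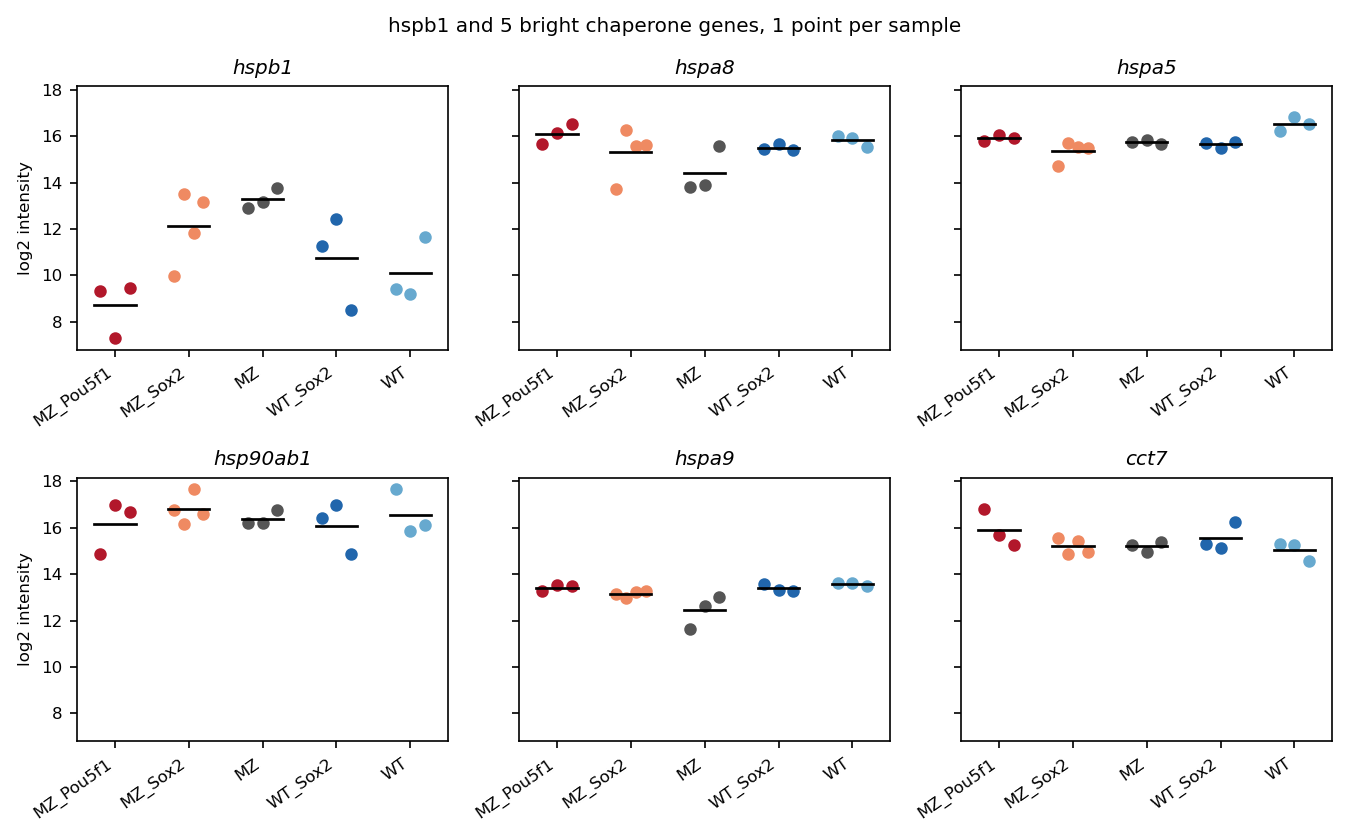
Log2 intensity of hspb1 and of 5 bright chaperone genes, 1 panel per gene, with 1 point per sample in the 5 groups and a line at each group's mean. The points for hspb1 span 7.32 to 13.79, while those of hspa5 span 14.73 to 16.82.

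In MZ_Sox2, WT_Sox2 and WT the samples had the same order for hspb1 as for the median of other early zygotic genes. These genes were listed with earlier results of these data known, so the shared order is not independent support. The median level of 38 early zygotic genes was 8.33, 6.50 and 7.15 in MZ_Pou5f1 and 7.19, 10.61, 9.27 and 10.11 in MZ_Sox2. It was 11.59, 11.55 and 9.69 in MZ. In WT_Sox2 it was 8.67, 9.60 and 7.17, and in WT 7.40, 7.09 and 11.45. WT replicate 3, the brightest WT sample for hspb1, also had the highest early zygotic median of its group, and MZ_Sox2 replicate 1 had the lowest of its group for both. The orders differed in MZ, whose highest hspb1 level was in replicate 3, where the early zygotic median was lowest, and in MZ_Pou5f1. The median of the 53 other bright chaperone genes stayed between 10.80 and 11.70 in all 16 samples. A median over many genes does not show that each was steady. Single genes among them had ranges from 0.85 (cct6a) to 5.28 (dnajc17).

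**Figure D3:**
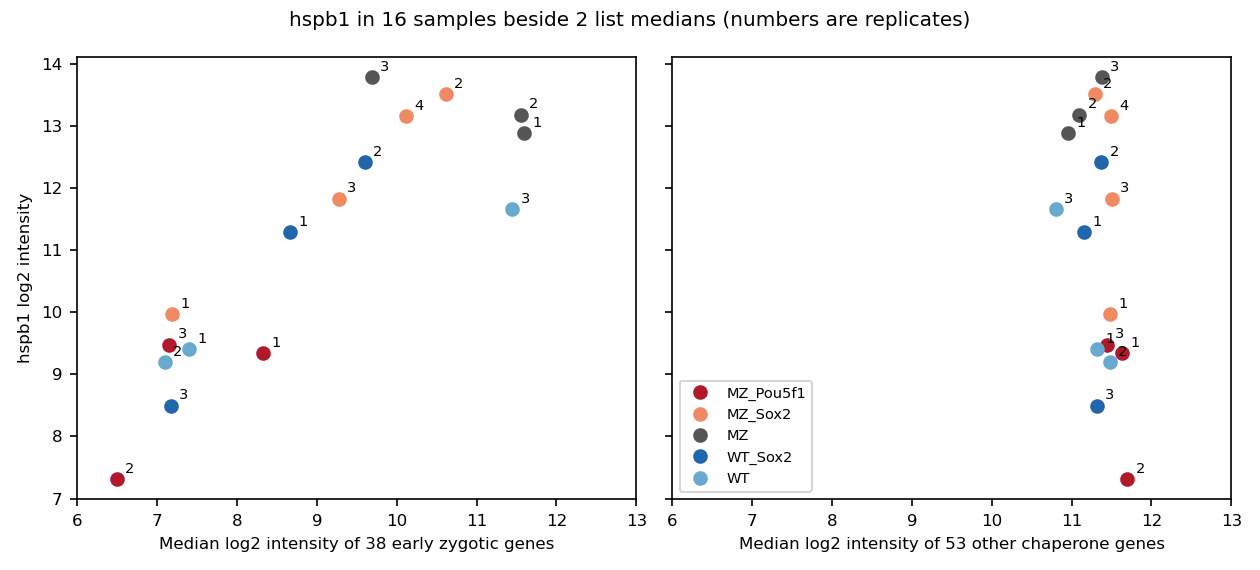
Log2 intensity of hspb1 in each of the 16 samples against the median log2 intensity of 38 early zygotic genes (left) and of the 53 other chaperone genes above the median intensity (right), coloured by group and numbered by replicate. Early zygotic medians run between 6.50 and 11.59, and those of the other chaperone genes between 10.80 and 11.70.

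None of the 38 early zygotic genes passed limma's threshold in these comparisons. In MZ against WT, 34 had positive differences and 4 negative ones (median 2.36), with 14 at an unadjusted p under 0.05. For MZ_Pou5f1 against MZ, 36 were negative (median -2.87), with 28 at an unadjusted p under 0.05, and for MZ_Sox2 against MZ 35 were negative (median -1.75), with 8. In WT_Sox2 against WT 26 were negative (median -0.36), with 2. The medians of all probes were -0.04, 0.06, 0.04 and -0.06 in these 4 comparisons. An unadjusted p under 0.05 was found for 12.2%, 12.2%, 4.82% and 14.5% of all probes, in the same order. The first 3 comparisons share the MZ samples, and the genes were listed with earlier results of these data known.

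Markers of other cell types of the blastula also varied between samples. The early zygotic genes include 3 of the yolk syncytial markers (apoeb, mxtx2 and sox32) and 3 of the enveloping layer markers (cldne, grhl3 and krt4) that follow. For 12 markers of the yolk syncytial layer the summed intensity was 1598 to 4718 in MZ_Pou5f1, 3227 to 65690 in MZ_Sox2, 15010 to 48040 in MZ, 3381 to 16080 in WT_Sox2 and 2922 to 47100 in WT. The highest WT value was again in replicate 3, and the 3 MZ samples lay above all MZ_Pou5f1 samples, as for hspb1. No marker was at 0, but 0 to 6 of the 12 were under the dark corner feature in a sample. For 16 markers of the enveloping layer and epidermis the summed intensities were 27220 to 55100 in MZ_Pou5f1, 33030 to 60950 in MZ_Sox2, 34080 to 60490 in MZ, 37580 to 48890 in WT_Sox2 and 32120 to 54270 in WT. Their median log2 level was 5.61 to 6.80 in MZ_Pou5f1, 7.06 to 9.47 in MZ and 6.26 to 7.96 in WT. By the median, MZ thus lay above all MZ_Pou5f1 samples here too, but overlapped with WT. In MZ_Pou5f1 against MZ, 13 of the 16 differences were negative (median -1.04). Of the 12 and the 16 genes, 0 passed limma's threshold in MZ against WT or MZ_Pou5f1 against MZ. At an unadjusted p under 0.05 there were 2 and 3 in the first comparison and 5 and 5 in the second (12.2% of all probes in each). The part of either layer in the hspb1 result was not tested. For 23 maternal egg and germ plasm transcripts, a comparison for the stored pool, the median differences were 0.15 in MZ against WT, 0.24 in MZ_Pou5f1 against MZ, 0.00 in MZ_Sox2 against MZ and 0.35 in WT_Sox2 against WT. Limma called 0 of the 23 in each, with 2, 2, 1 and 5 at an unadjusted p under 0.05 (12.2%, 12.2%, 4.82% and 14.5% of all probes).

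The other small heat shock genes were dim. Levels were 2.74 to 5.13 for hspb8, 2.73 to 4.38 for hspb7 and 2.79 to 4.18 for hspb9l, near the dark corner feature in most samples. Their largest differences were 1.0 for hspb8 in WT_Sox2 against WT (SE 0.50, limma adjusted p = 0.384), 0.63 for hspb7 in the same comparison (limma adjusted p = 0.46) and -0.55 for hspb9l in MZ_Pou5f1 against MZ (limma adjusted p = 0.533). At these levels a difference is not separated from background.

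Across all 61 chaperone genes, limma called 0 in MZ against WT, where 0.00465% of all probes were called. It called 0 in MZ_Pou5f1 against MZ and 0 in MZ_Sox2 against MZ (0% of all probes in each), 0 in WT_Sox2 against WT (0.0977% of all probes), and 0 over the 5 groups and in the difference of the Sox2 effect between MZ and WT (0% of all probes in each). At an unadjusted p under 0.05 the counts were 11 of 61 in MZ against WT (12.2% of all probes), 4 in MZ_Pou5f1 against MZ (12.2%), 3 in MZ_Sox2 against MZ (4.82%), 9 in WT_Sox2 against WT (14.5%), 9 in the difference of the Sox2 effect (9.09%) and 5 over the 5 groups (10.1%). As shares of the 61 these were 18%, 6.56%, 4.92%, 14.8%, 14.8% and 8.2%, some above and some under the share of all probes. The call counts moved with single samples. For MZ against WT, limma called 5 chaperone genes (cct3, cct8, dnajc17, hspa9 and hspb1) without WT replicate 2, and the same 5 with hspa5 without MZ replicate 1. For MZ_Pou5f1 against MZ it called 5 (dnajb11, dnajc15, hspa8, hspa9 and hspb1) without MZ replicate 3. In those 3 fits it called 1431, 1359 and 958 probes in all.

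Groups that did not overlap were found for 13 of the 61 genes in MZ against WT (21.3%, against 13.2% of all probes), with MZ higher for 7 (5.23% of all probes) and lower for 6 (7.96%). In MZ_Pou5f1 against MZ there were 9 (14.8%, against 17%), with MZ_Pou5f1 higher for 6 (10.4%) and lower for 3 (6.51%). In MZ_Sox2 against MZ there were 0 (4.2% of all probes, 2.11% higher and 2.09% lower in MZ_Sox2). In WT_Sox2 against WT there were 21 (34.4%, against 27.3%), with WT_Sox2 higher for 13 (12%) and lower for 8 (15.3%). The median difference of the chaperone genes was -0.01 in MZ against WT, 0.17 in MZ_Pou5f1 against MZ, 0.22 in MZ_Sox2 against MZ and 0.42 in WT_Sox2 against WT. The last stood farthest from the median of all probes, -0.06, and had 41 positive and 20 negative differences. For the 54 bright genes the median in that comparison was 0.38, and that of all bright probes was 0.10.

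**Figure D4:**
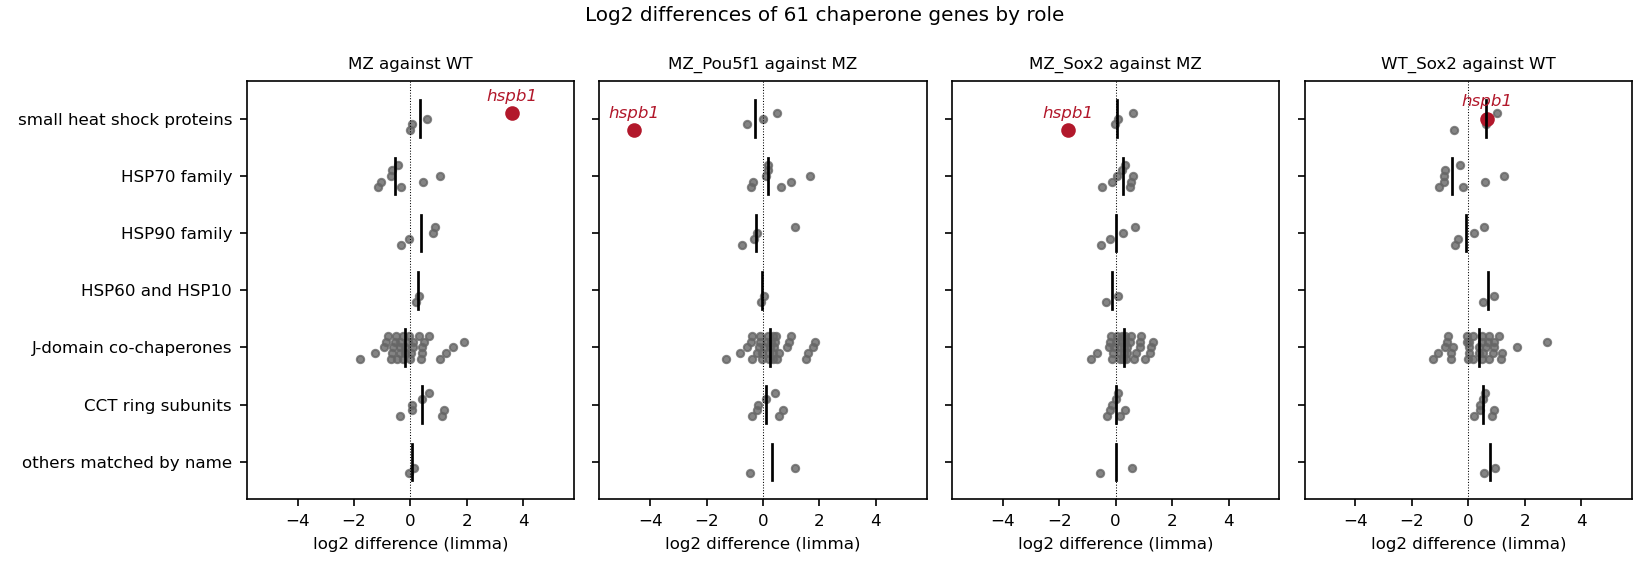
Log2 differences of the 61 chaperone genes (limma) in 4 comparisons, 1 panel each, with a row per role, a point per gene, hspb1 in red and a vertical bar at the median of the role. All points but hspb1 lie between -1.79 and 2.80, and hspb1 lies at 3.61, -4.58, -1.67 and 0.65.

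Of the 8 genes of the HSP70 family, which binds nascent and unfolded chains, 6 had a negative difference in MZ against WT (median -0.54), 3 of them with groups that did not overlap (7.96% of all probes were lower in MZ without overlap). The mitochondrial form hspa9 read 13.27, 13.52 and 13.47 in MZ_Pou5f1, 13.15, 12.96, 13.25 and 13.27 in MZ_Sox2 and 11.63, 12.64 and 13.03 in MZ. It read 13.57, 13.29 and 13.28 in WT_Sox2 and 13.60, 13.60 and 13.49 in WT. The 3 MZ samples were under every MZ_Pou5f1, WT_Sox2 and WT sample, and MZ replicate 1 was the lowest of all. The differences were -1.05 for MZ minus WT (SE 0.29, limma adjusted p = 0.309, the lowest of the 61 genes in this comparison) and 0.99 for MZ_Pou5f1 minus MZ (SE 0.29, limma adjusted p = 0.409). Of the 6 fits with 1 sample left out, hspa9 passed limma's threshold in 2 for the first difference, without WT replicate 2 (-0.84, adjusted p = 0.0408) and without MZ replicate 1 (-0.71, adjusted p = 0.0162), and in 1 for the second, without MZ replicate 3 (1.27, adjusted p = 0.041). The adjusted p reached 0.937 and 0.936 in the other fits, and the second difference was 0.60 without MZ replicate 1. A second, dimmer hspa9 probe had the opposite sign in MZ minus WT (0.20, SE 0.37, limma adjusted p = 0.848), 0.60 in MZ_Pou5f1 minus MZ, and 1.05 in WT_Sox2 minus WT (SE 0.37, limma adjusted p = 0.229), where the brighter probe had -0.18. On slide 2 the differences were -0.57 (1 against 1) and 0.39 (3 against 1), and on slide 1 that of MZ minus WT was -1.41 (2 against 2).

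The constitutive cytosolic HSP70, hspa8, read 15.66, 16.12 and 16.50 in MZ_Pou5f1, and 13.75, 16.25, 15.58 and 15.63 in MZ_Sox2. Its levels were 13.81, 13.91 and 15.56 in MZ, 15.45, 15.68 and 15.39 in WT_Sox2, and 16.0035, 15.92 and 15.53 in WT. It was low in MZ replicates 1 and 2 and in MZ_Sox2 replicate 1, and the other 13 samples lay between 15.39 and 16.50. MZ_Pou5f1 minus MZ was 1.67 (SE 0.48, limma adjusted p = 0.409; 0.0487 without MZ replicate 3 and up to 0.936 in the other 5 fits with 1 sample left out) and MZ minus WT was -1.13 (SE 0.49, limma adjusted p = 0.387). On slide 2, which held MZ replicate 3, these differences were 0.54 and -0.45. On slide 1, with the other MZ samples, MZ minus WT was -1.86.

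The HSP70 of the endoplasmic reticulum, hspa5 (BiP), was highest in uninjected wild type. Levels were 15.79, 16.05 and 15.92 in MZ_Pou5f1, 14.73, 15.71, 15.52 and 15.50 in MZ_Sox2, 15.74, 15.83 and 15.67 in MZ, 15.72, 15.49 and 15.74 in WT_Sox2, and 16.22, 16.82 and 16.50 in WT. All 13 samples of the other groups were under the 3 WT samples. Differences were -0.86 for WT_Sox2 minus WT (SE 0.24, limma adjusted p = 0.148), -0.68 for MZ minus WT (SE 0.24, limma adjusted p = 0.343; 0.0494 without MZ replicate 1 and up to 0.937 in the other 5 fits with 1 sample left out) and -0.49 for MZ_Sox2 minus MZ (SE 0.23, limma adjusted p = 0.77). The F test over the 5 groups gave an adjusted p of 0.357. Within slides, MZ minus WT was -0.87 on slide 1 and -0.55 on slide 2.

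Heat-inducible HSP70 genes were less bright. In WT_Sox2 against WT, hsp70.3 read 9.50, 9.0 and 9.01 against 9.59, 9.70 and 10.80 (difference -0.86, SE 0.35, limma adjusted p = 0.281), and hsp70l read 8.21, 7.69 and 9.05 against 9.69, 10.02 and 8.33 (difference -1.03, SE 0.49, limma adjusted p = 0.358). The groups did not overlap for hsp70.3 and overlapped for hsp70l. The HSP110-type exchange factors differed in sign, with -0.65 for hspa4a and 0.44 for hspa4b in MZ against WT, and -0.81 and 0.60 in WT_Sox2 against WT (limma adjusted p between 0.375 and 0.566). Levels of hspa8b were 3.18 to 6.11, near background.

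Among HSP90 genes, the constitutive cytosolic hsp90ab1 was at the top of the intensity range. It read 14.87, 16.95 and 16.69 in MZ_Pou5f1, 16.76, 16.15, 17.64 and 16.57 in MZ_Sox2, and 16.18, 16.20 and 16.76 in MZ. In WT_Sox2 it read 16.40, 16.95 and 14.85, and in WT 17.64, 15.85 and 16.12. All groups overlapped, and its differences lay between -0.47 and 0.25 (SE 0.65 to 0.67, limma adjusted p 0.781 and above). The 95% interval of MZ minus WT, -1.49 to 1.42, still allows differences of over 1 log2 unit. Its 3 brightest probes lay within 0.83 of each other in every sample, but 2 dimmer probes had differences of 1.28 and 1.46 in MZ_Pou5f1 against MZ, where the brightest had -0.21. Near the top of the shared distribution a level reflects a rank, so equal values recur, such as 17.64 in MZ_Sox2 replicate 3 and WT replicate 1.

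The endoplasmic reticulum form hsp90b1 (GRP94) had levels of 13.11 to 15.66 and differences between -0.30 and 0.80 (limma adjusted p 0.628 and above). The alpha forms hsp90aa1.1, known in zebrafish for its part in muscle fibre assembly, and hsp90aa1.2 are neighbouring genes in the RefSeq table of assembly GRCz12tu. In MZ_Pou5f1 against MZ their differences were 1.12 (SE 0.67) and -0.73 (SE 0.46), of opposite sign (limma adjusted p = 0.454 and 0.463). Near-identical paralogs may share probe signal, and this was not tested. For hsp90aa1.2 the MZ samples read 7.68, 7.57 and 8.0, above all MZ_Pou5f1 samples (6.65, 7.56 and 6.84) and all WT samples (6.71, 6.68 and 7.13).

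The mitochondrial HSP60 gene hspd1 and its co-chaperonin hspe1 (HSP10), also neighbours in that table, had differences between -0.34 and 0.31 in the 3 comparisons with MZ samples. In WT_Sox2 against WT they were 0.51 for hspd1 (SE 0.31, limma adjusted p = 0.466) and 0.92 for hspe1 (SE 0.42, limma adjusted p = 0.348). The hspe1 levels were 13.55, 12.41 and 12.47 in WT_Sox2 against 12.17, 11.93 and 11.58 in WT, without overlap.

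The CCT ring folds actin and tubulin. All 7 subunits measured here were bright, with mean levels from 12.39 for cct4 to 15.37 for cct7. In WT_Sox2 against WT all 7 differences were positive, from 0.19 for cct5 to 0.90 for cct4. Their median was 0.52, against -0.06 for all probes and 0.10 for all probes above the median intensity. The 54 bright chaperone genes had a median of 0.38. Limma called 0 of the 7 there, and 1 (cct4) had an unadjusted p under 0.05, as did 14.5% of all probes. The groups did not overlap for cct3, cct4 and cct6a (12% of all probes were higher in WT_Sox2 without overlap). In MZ against WT 6 of the 7 were positive (median 0.41), and in MZ_Pou5f1 against MZ and MZ_Sox2 against MZ 4 were positive in each (medians 0.09 and 0.02). Both comparisons with positive CCT differences share the WT samples.

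Of the subunits, cct3 read 14.14, 14.22 and 12.70 in MZ_Pou5f1, 13.14, 14.24, 14.05 and 13.89 in MZ_Sox2, and 13.87, 13.70 and 14.18 in MZ. It read 13.16, 13.60 and 14.21 in WT_Sox2 and 12.87, 12.75 and 12.77 in WT. The WT samples were tightly grouped under all MZ, MZ_Sox2 and WT_Sox2 samples. MZ minus WT was 1.20 for cct3 (SE 0.41, limma adjusted p = 0.335) and 1.12 for cct8 (SE 0.39, limma adjusted p = 0.339). Both passed limma's threshold without WT replicate 2 (adjusted p = 0.0476 and 0.0394) and without MZ replicate 1 (adjusted p = 0.0462 and 0.0498), and in none of the other 4 fits with 1 sample left out, where the adjusted p reached 0.937 for both. For cct2, a second, dimmer probe had differences of 2.11 in MZ against WT and 2.00 in WT_Sox2 against WT, where the brighter had 0.41 in each. The remaining subunit of the ring, tcp1, does not match the naming rule. Its levels were 14.01, 13.88 and 14.01 in WT_Sox2 and 14.04, 13.89 and 13.61 in MZ, against 13.34, 13.42 and 12.67 in WT. Its differences were 0.82 for WT_Sox2 minus WT (SE 0.25, limma adjusted p = 0.17) and 0.66 for MZ minus WT (SE 0.25, limma adjusted p = 0.357).

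The 34 J-domain genes, which direct HSP70 to its clients, had differences of both signs in each comparison. Of them 13 were positive in MZ against WT (median -0.18), 22 in MZ_Pou5f1 against MZ (median 0.23), 26 in MZ_Sox2 against MZ (median 0.28) and 23 in WT_Sox2 against WT (median 0.38), and limma called 0 in each. By the brightest probe of each gene, the lowest adjusted p of any chaperone gene was that of dnajc24. Its human counterpart acts in the synthesis of diphthamide, a modified residue of elongation factor 2. The dnajc24 probe read 10.36, 10.14 and 10.02 in WT_Sox2 against 9.06, 8.97 and 8.93 in WT. The difference was 1.19 (SE 0.28, interval 0.57 to 1.80, limma adjusted p = 0.103). In MZ_Sox2 it read 9.37, 8.82, 9.34 and 9.09 against 8.94, 9.68 and 9.45 in MZ. The groups were apart in wild type and overlapped in MZ, and the Sox2 effect in MZ minus that in WT was -1.43 (SE 0.39, limma adjusted p = 0.377). WT_Sox2 and WT shared no slide, so slide and Sox2 mRNA cannot be told apart here. In WT_Sox2 against WT a dimmer probe of another J-domain gene, dnajb1a, had 1.60 (SE 0.34, limma adjusted p = 0.0896). The brightest dnajb1a probe had 0.69 there (SE 0.33, limma adjusted p = 0.361).

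A subunit of the mitochondrial import motor, dnajc19, had the largest positive difference after hspb1. Its levels were 8.01, 7.36 and 8.25 in WT_Sox2 against 5.13, 5.39 and 4.71 in WT, a difference of 2.80 (SE 0.90, limma adjusted p = 0.198). In WT replicate 3 the level was under the dark corner feature. It was 5.88, 4.90, 7.05 and 7.44 in MZ_Sox2 against 7.52, 7.89 and 5.44 in MZ, with overlap, and the Sox2 effect in MZ minus that in WT was -3.47 (SE 1.25, limma adjusted p = 0.471). For dnajb6a, a suppressor of protein aggregation, 2 probes disagreed. In WT_Sox2 against WT the brighter had -1.07 (SE 0.34, limma adjusted p = 0.191) and the dimmer 1.73 (SE 0.51, limma adjusted p = 0.167). Of 16 genes with over 1 probe above the median intensity, the probes had 1 sign for 10 in this comparison and for 12 in each of the others.

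The 6 brightest J-domain genes were dnaja3a of the mitochondrion, dnajc5ga of the cysteine string protein type, the cytosolic dnaja2a and dnajc7, dnajc9, a nuclear histone co-chaperone in human cells, and dnajc21, which acts in ribosome biogenesis in human cells. Their levels ranged from 11.74 to 15.40, and their differences from -0.86 (dnajc7 in MZ against WT, SE 0.31, limma adjusted p = 0.351) to 1.01 (dnaja2a in MZ_Pou5f1 against MZ, SE 0.47, limma adjusted p = 0.412). The groups did not overlap in MZ against WT (7.96% of all probes lower in MZ) for dnajc7 (12.14, 13.34 and 12.89 in MZ, 13.57, 13.64 and 13.59 in WT) and dnajc9 (13.27, 13.12 and 13.47 in MZ, 13.70, 13.68 and 14.18 in WT). At the other end, dnajb4 and the sperm flagellum gene dnajb13 read 2.72 to 5.36 and 2.46 to 4.28.

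The remaining J-domain genes that stood out by their statistic were dnajb11, dnajc10, dnajc2 and dnajc5aa. For dnajb11 (ERdj3), a partner of BiP, MZ_Sox2 samples read 12.96, 12.84, 13.10 and 12.61 and MZ samples 11.40, 11.30 and 12.90. The differences were 0.90 for MZ_Sox2 minus MZ (SE 0.38, limma adjusted p = 0.77) and 0.92 for MZ_Pou5f1 minus MZ (SE 0.39, limma adjusted p = 0.409; 0.0421 without MZ replicate 3 and up to 0.936 in the other 5 fits with 1 sample left out). On slide 2, against MZ replicate 3, the second was -0.12 (3 against 1). The disulfide reductase dnajc10 (ERdj5) had 0.86 in MZ_Sox2 against MZ (SE 0.37, limma adjusted p = 0.77) and -0.71 in WT_Sox2 against WT (SE 0.38, limma adjusted p = 0.419), with a level under the dark corner feature in MZ replicate 1. The ribosome-associated dnajc2 had -0.89 (SE 0.49, limma adjusted p = 0.77) and 1.17 (SE 0.50, limma adjusted p = 0.314) in these comparisons. The cysteine string protein gene dnajc5aa read 9.59, 9.44 and 9.19 in MZ_Pou5f1, under 10.74, 10.24 and 9.72 in MZ (difference -0.83, SE 0.40, limma adjusted p = 0.413).

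By place in the cell, the 7 genes assigned here to the endoplasmic reticulum (hspa5, hsp90b1, dnajb9a, dnajb11, dnajc1, dnajc3a and dnajc10) had medians of -0.27 in MZ against WT, 0.43 in MZ_Pou5f1 against MZ, 0.29 in MZ_Sox2 against MZ and 0.17 in WT_Sox2 against WT. For the 9 mitochondrial genes the medians were -0.26, 0.20, 0.34 and 0.36. Limma called 0 of either set in each. The paralog of dnajc3a, dnajc3b, was assigned to neither set. Its group means were 10.20 in MZ_Pou5f1, 9.46 in MZ_Sox2, 8.66 in MZ, 8.84 in WT_Sox2 and 10.11 in WT. Of 73 further chaperones, co-chaperones and heat shock factors, 49 were measured and 0 were called. In the same order of comparisons, 8, 11, 4 and 6 had an unadjusted p under 0.05 (12.2%, 12.2%, 4.82% and 14.5% of all probes). The medians of the 49 were 0.05, 0.08, 0.13 and -0.04, with 25, 31, 27 and 22 positive differences. Among them the endoplasmic reticulum genes pdia4, a disulfide isomerase, and sdf2l1, a partner of BiP, were picked after their values were seen. In MZ_Pou5f1 against MZ they had 2.04 (SE 0.56) and 1.58 (SE 0.43), with a limma adjusted p = 0.409 for both. In MZ against WT they had -1.64 and -1.46 (limma adjusted p = 0.338 and 0.31), and sdf2l1 had 1.53 in MZ_Sox2 against MZ. Other endoplasmic reticulum genes of the list differed in sign. In MZ_Pou5f1 against MZ, pdia5, calr3b and pdia6 had 1.01, 0.70 and 0.58. There canx, p4hb, calr3a, calr and sec63 had 0.08, 0.21, 0.06, -0.18 and -0.32. In MZ against WT the first 3 had -0.67, -0.56 and -0.06, and the others 0.85, 0.59, 0.39, 0.12 and 0.40. The sdf2l1 levels were 11.63, 11.34 and 11.84 in MZ_Pou5f1, 9.74, 9.52 and 10.80 in MZ and 11.81, 11.61 and 10.88 in WT. The heat shock factor gene hsf1 read 9.06, 7.29 and 8.02 in MZ_Pou5f1, 9.94, 9.71 and 7.74 in MZ and 7.61, 7.52 and 9.90 in WT, and its highest levels were in MZ replicate 1 and WT replicate 3.

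Extreme levels were spread unevenly over the samples. Of the 54 bright chaperone genes, 16 had their lowest level of all 16 samples in WT replicate 3, 8 in MZ_Sox2 replicate 2 and 7 in MZ replicate 1. The highest level was in MZ_Sox2 replicate 1 for 10 genes. Such counts were not made over all probes, so whether they are particular to chaperone genes was not tested. Over the probes above the median intensity, WT replicate 3 had the lowest mean correlation with all samples (0.864). In WT replicate 3 the median deviation from the gene's own mean was -0.49, with 12 genes over 1 log2 unit under it. In MZ replicate 1 the median was -0.27, with 10 such genes, and in the other 14 samples the medians lay between -0.14 and 0.22. An example, chosen after its values were seen, is dnajc17, at 7.01 in WT replicate 3 and 10.11 to 12.29 in the other 15 samples. WT replicate 3 and MZ replicate 1 were also the samples with the bright dark corner feature. Without both of these samples, a fit added after the data were seen, limma called 0 of the 61 genes in each comparison. Of all 21495 probes it called 5 in MZ against WT and 6 in MZ_Pou5f1 against MZ. At an unadjusted p under 0.05 there were 11 of the 61 genes in MZ against WT (4094 of 21495 probes). In MZ_Pou5f1 against MZ there were 5 (2313 of 21495 probes). In this fit hspb1 differed by 4.19 in MZ against WT and by -4.60 in MZ_Pou5f1 against MZ.

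**Figure D5:**
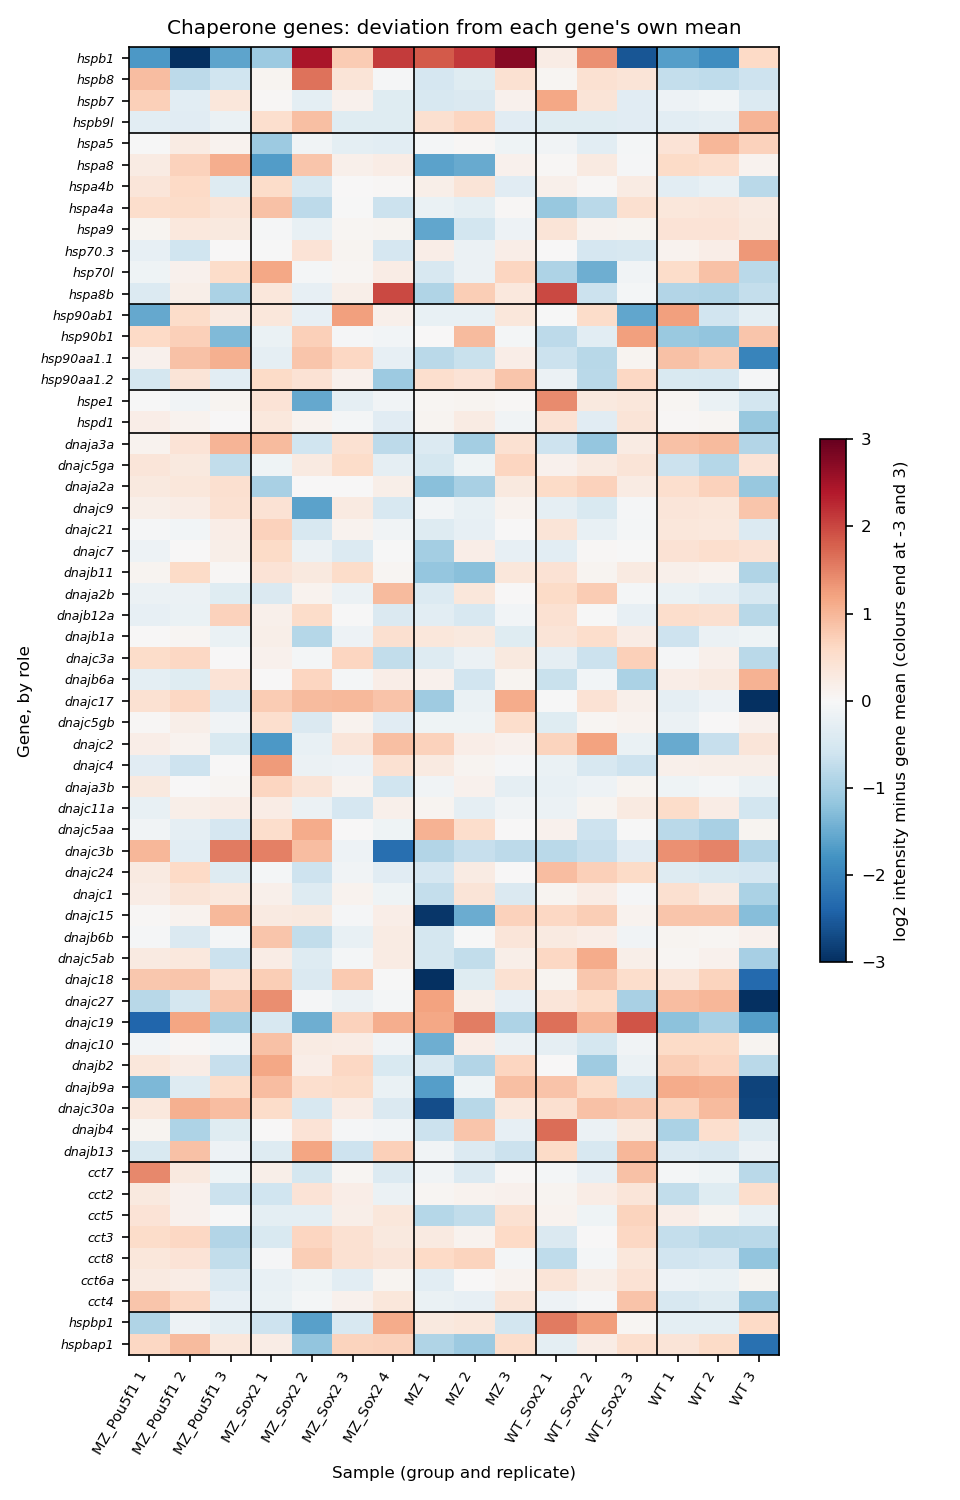
Deviation of log2 intensity from each gene's own mean, with the 61 chaperone genes as rows grouped by role (brightest first within a role) and the 16 samples as columns grouped as labelled, in colours that end at -3 and 3. The hspb1 row has the largest SD over the samples (2.03). Single samples of other genes also pass the end of the colours, such as dnajc17 in WT replicate 3. WT replicate 3 and MZ replicate 1 are the columns with the most genes over 1 log2 unit under their mean (12 and 10 of the 54 bright genes).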

How the data were processed

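RNA of 16 samples of whole zebrafish embryos was measured on 2-colour Agilent arrays. The deposited values are probe intensities on a linear scale, which the authors quantile normalised after splitting the dye channels, per the labels (design text). Agilent Feature Extraction is the software named in the submitters' processing notes. Its version and the background correction are not given in the sources used here. Sorted values were identical in 14 of the 16 columns. The columns of MZ_Pou5f1 replicate 2 and MZ_Sox2 replicate 4 were mapped by rank onto them, and the intensities, mapped in these columns and as deposited in the others, were then taken to log2. Control features (60 of 21555) were left out.

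Genes were named from the platform annotation, in which 12887 probes had 1 symbol, 0 had several and 8608 had none. The RefSeq table held all 61 chaperone gene identifiers and changed 0 symbols. Of the 61 genes, 22 had over 1 of the 91 probes.

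One limma fit held all 16 samples, with group means, a term for dye and a random effect of array (duplicateCorrelation), since 3 arrays held 2 samples (consensus correlation 0.04286, 10 residual and 2.309 prior degrees of freedom). Fitted differences can therefore depart from those of the plain means. Tests were two-sided with a threshold of 0.05. The design text calls the replicates biological. For hspb1 an exact permutation test was added, which did not keep the MZ and WT samples of an array together. The fit was tested on simulated data. Alternatives covered normalization, dye, array, slide, dim probes, empirical Bayes options, probes per gene, replicate number and each sample left out, and 2 were added after the data were seen. The genes, roles and lists were chosen with earlier results of these data known. Named were hspb1, all members of the HSP70, HSP90, HSP60/HSP10, small heat shock and CCT groups, the 6 brightest and 2 dimmest J-domain genes, and in each comparison the 2 genes above the median intensity with the largest statistic in each direction. Others were named after their values were seen. Sequences of the genes were not used here. Computations used R 4.3.3, limma 3.58.1 and the data.table package (version 1.17.8), and figures Python 3.11.15 with matplotlib 3.10.9.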

Additional observations from a re-analysis of the deposited data

Results flagged for a closer look

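In MZ_Sox2, the only group of over 3 samples, replicate 1 lay far from the other replicates for dnaja2a, a cytosolic J-domain gene. It read 13.05 there, while the other samples of the group lay between 14.02 and 14.19. The gap to the nearest sample was 0.85 of the group's whole range, above Dixon's critical value for 4 samples. Among 40 genes examined, chance would give about 2 such cases. The cause was not tested.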

How the results depend on the processing

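The count of chaperone genes called by limma was 0 in each comparison under every alternative that keeps all samples. With 1 replicate left out it ranged from 0 to 6 in MZ against WT and from 0 to 5 in MZ_Pou5f1 against MZ, and it stayed at 0 in the other comparisons. The 3 fits with calls were those without WT replicate 2 (5 calls), without MZ replicate 1 (6 calls) and without MZ replicate 3 (5 calls), in which the estimated correlation within arrays was 0.646, 0.651 and -0.169. Of 4010 values of 40 named genes under 29 settings, 3997 kept their side of the threshold, 13 newly passed it, all in those 3 fits, and 0 called values turned round. A change of sign occurred in 209 values that were uncalled in both fits. Over the alternatives, leave-one-out fits included, hspb1 kept its sign in each comparison except WT_Sox2 against WT, where leaving out 1 sample gave -0.06 to 1.53. Deviations of same-numbered samples had correlations of -0.68 to 0.51. With so few samples per group this cannot show whether the numbers pair the samples. The MZ and WT samples that shared an array had different numbers. With the replicate block hspb1 differed by 3.62 in MZ against WT (limma adjusted p = 0.278) and by -4.58 in MZ_Pou5f1 against MZ (limma adjusted p = 0.535), and limma called 0 chaperone genes in each comparison and 3 probes in MZ against WT, against 1 without the block. With slide as a random block, limma called 0 probes in WT_Sox2 against WT, against 21 in the main fit. At an unadjusted p under 0.05 there were 5 chaperone genes (2242 of 21495 probes), against 9 in the main fit (3115 probes). Slide as a fixed block could not be fitted for MZ_Sox2 against MZ, WT_Sox2 against WT or the 5-group test. It could be for the difference of the Sox2 effect between MZ and WT, where hspb1 was -3.71. That fit rests on MZ_Sox2 replicate 1, the only MZ_Sox2 sample on a slide with WT_Sox2. Without both samples with a bright dark corner feature, only 1 array held 2 samples, so no array block was used. For genes near the dark corner feature, signal over background limits what can be measured.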
